A study of Mus musculus with 12 samples.

Results

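The RBM genes, named for the RNA-binding motif that their proteins carry, and the related RBMX, RBMS and RBFOX genes encode proteins that bind RNA and take part in splicing, export, decay, RNA modification and translation. The members described here were every protein-coding gene of the count table whose symbol began with Rbm and a digit, Rbmx, Rbms or Rbfox, with genes on the Y chromosome left out. The rule used names only and no measured value, and it gave 48 of the 54532 genes in the table, 5 of them on the X chromosome.

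Expression was measured by bulk RNA-seq in 12 libraries from testes of mice of strain Tg(Pou5f1-EGFP)2Mnn, in which a Pou5f1 (OCT4) transgene with green fluorescent protein (GFP) marks germ cells. Dams received 10 μg per g of the glucocorticoid receptor agonist dexamethasone (dex) by intraperitoneal injection at E17.5 and E18.5, the pups received the same dose under the skin on postnatal day 0, and control dams and pups received saline. Testes were taken on postnatal day 1 and sorted by GFP. With GFP-positive cells taken as germ cells and GFP-negative cells as somatic cells, the groups were saline germ, saline somatic, dex germ and dex somatic, each of 3 libraries. Each replicate was, per the study, testes pooled from separately dosed litters. All 4 groups carried the transgene, and the GFP-negative fraction was a mixture of all other testis cell types.

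Male germ cells at this age are prospermatogonia, cells arrested in the cell cycle before spermatogenesis starts. Testis is known for a rich use of alternative splicing and for RNA-binding proteins that are made nowhere else, several of them RBM proteins needed for meiosis or for the splicing of long exons in germ cells. The family otherwise holds general parts of the splicing and RNA surveillance machinery that every cell uses.

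Levels are given as the deposited FPKM (fragments per gene length and library total), so that members can be compared with each other, or as CPM (counts scaled to a common library total by TMM normalization) for 1 gene across libraries, each as mean ± SD of 3 libraries. A member is called where its adjusted p from the quasi-likelihood test of edgeR was at or under 0.05, with Benjamini-Hochberg adjustment over all genes tested in that comparison. Library totals lay between 18459692 and 25178477 counts, and a count of 0 then allows 3 counts, or 0.119 to 0.163 CPM. Such floors cover counting error only. The sort was checked with marker genes: the 5 germ markers summed to 1825 to 2034 CPM in saline germ libraries and 7.16 to 8.38 CPM in saline somatic libraries, and the 4 Sertoli markers to 38.5 to 41.7 and 2843 to 2928 CPM.

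Of the 48 members, 43 had more than 3 counts in every library of all 4 groups. In saline germ cells 26 members had a mean of 10 FPKM or more and 5 were under 1 FPKM, and in saline somatic cells 19 and 11 did. The member with the highest level was Rbmxl2 in saline germ cells, at 89.2 ± 8.55 FPKM, and Rbm39, a relative of the splicing factor U2AF, in saline somatic cells, at 70.6 ± 2.17 FPKM. Together the members took 0.307 to 0.385% of a library's counts.

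**Figure D1:**
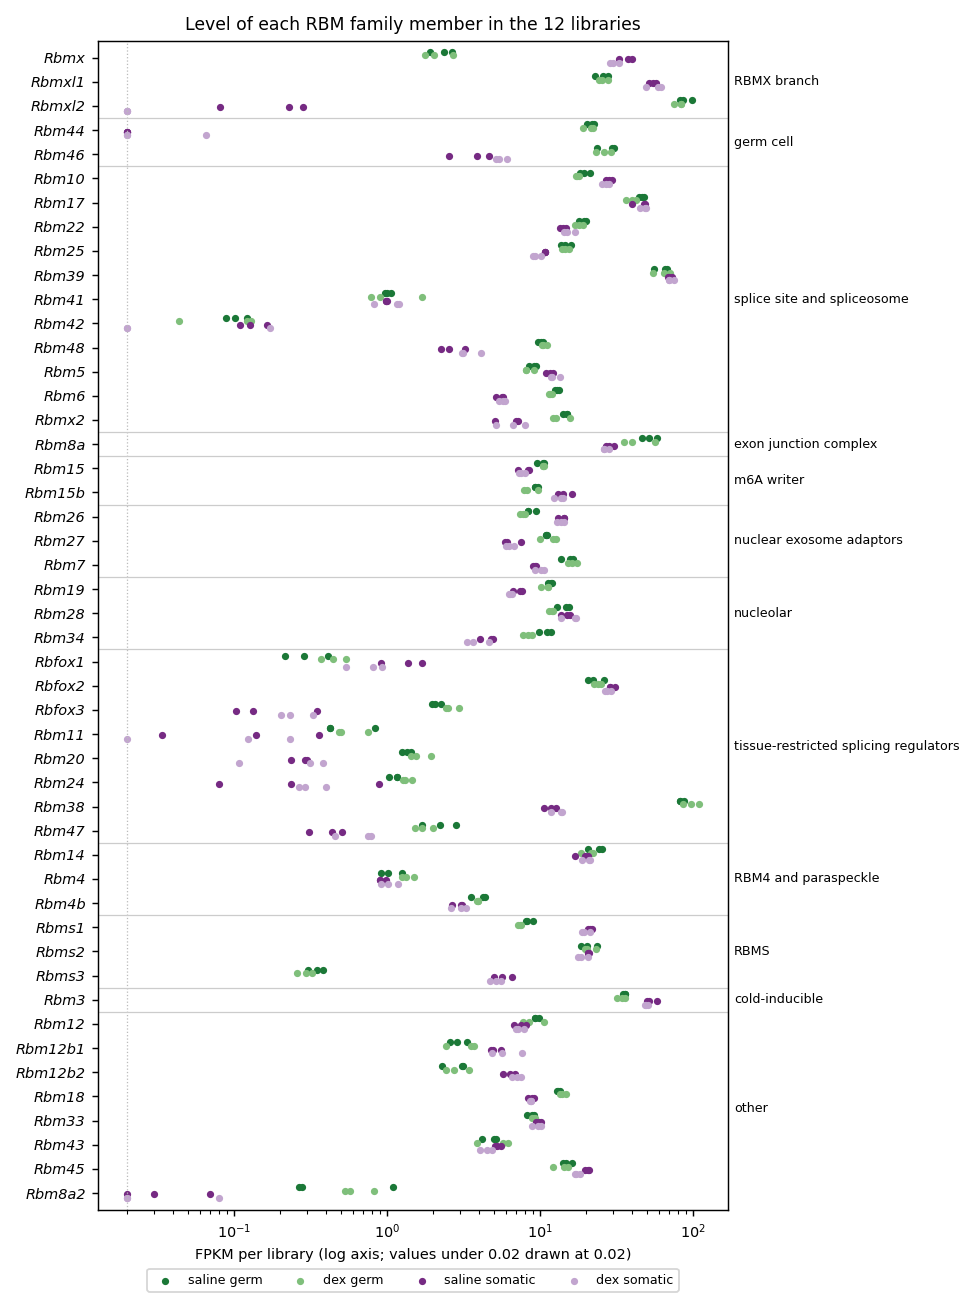
FPKM of each of the 48 members in each of the 12 libraries on a log axis, with 1 point per library, the 4 groups in colour and members ordered by role; values under 0.02 are drawn at 0.02. Many members differ little between the 12 libraries on this axis, while those widely separated between germ and somatic cells include Rbmx, Rbmxl2, Rbm44, Rbms3, Rbfox3, Rbm46 and Rbm38.

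In saline, germ cells were compared with somatic cells to ask which members were transcripts of which population. Of 46 members tested, 35 were called, 19 higher and 16 lower in germ cells. Over all genes tested the share called was 76.5%, with 39.8% higher and 36.7% lower, so that the members' share was close to the background. The median log2 fold change was 0.21 over the members and 0.072 over all genes tested; when library totals replaced TMM the latter was 0.21 and the members called were 24 higher and 14 lower. Under dex, 38 of 47 members tested were called, 22 higher and 16 lower, beside 76.3% of all genes, of which 40.5% higher and 35.7% lower. Of the 35 members called in saline and the 38 called under dex, 32 were called in both, and all 32 had the same direction. The treatments share no libraries. With 76.5% of all genes called in saline and 76.3% under dex, this overlap is not read as a trait of the members. The share of all genes called in both was not counted.

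The RBMX branch was split between the populations. Rbmx (chromosome X, 57383530 to 57393036, minus strand, mm10) encodes the nuclear splicing protein hnRNP G. Rbmxl2 (chromosome 7, 107209445 to 107210916, plus strand), a gene of 1 exon, encodes the related testis protein hnRNP G-T. Rbmxl1 (chromosome 8, 78505269 to 78508898, minus strand) is another autosomal relative. Rbmx measured 2.36, 2.66 and 1.91 FPKM in the saline germ libraries and 37.7, 33.0 and 39.9 FPKM in the saline somatic libraries. Rbmxl2 measured 86.0, 82.7 and 98.9 FPKM in saline germ and 0.229, 0.0813 and 0.283 FPKM in saline somatic libraries. The pair therefore stood in opposite order, every germ library being below every somatic library for Rbmx and above every somatic library for Rbmxl2. Rbmx was 17.4-fold lower in germ cells (log2 fold change -4.12, SE 0.13, adjusted p = 5.75e-11), and Rbmxl2 was 418-fold higher (log2 fold change 8.71, SE 0.21, adjusted p = 8.26e-12). The size of the Rbmxl2 fold is uncertain, as its saline somatic libraries held 7, 3 and 9 counts, near the floor of 3 counts.

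Rbmxl1 measured 25.8, 27.8 and 23.0 FPKM in saline germ and 52.1, 57.2 and 55.0 FPKM in saline somatic libraries, and was lower in every germ library (log2 fold change -1.22, SE 0.10, adjusted p = 3.76e-07). Its value is uncertain: 74.2% of the 64-base words of its transcripts also occur in other genes, chiefly Gm7324, while 0.089% of those of Rbmx and none of those of Rbmxl2 do. With all 3 genes summed, the branch came to 117 ± 5.88 FPKM in saline germ and 91.8 ± 2.88 FPKM in saline somatic cells. Rbmxl2 made up 76.1% ± 3.45 of that sum in germ cells, where Rbmx made up 1.99% ± 0.410; in somatic cells Rbmx made up 40.1% ± 3.08.

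In bulk libraries, fewer cells of a type and less RNA per cell cannot be told apart. Rbmx in saline germ libraries stood at 5.77% of its mean CPM in somatic libraries. By the same measure the 4 Sertoli markers stood at 0.677 (Amh) to 4.55% (Wt1), the 5 peritubular and stromal markers at 0.320 (Acta2) to 2.62% (Pdgfra) and the 5 Leydig markers at 1.34 (Insl3) to 17.4% (Star). The 4 macrophage markers stood at 1.28 (Lyz2) to 40.1% (Cd68) and the 3 erythroid markers at 0.904 (Hbb-bs) to 86.0% (Alas2). The 4 endothelial markers stood at 9.99 (Cdh5) to 151% (Pecam1), of which Pecam1 was itself called higher in germ cells (log2 fold change 0.60). Rbmx thus lay above the Sertoli and stromal markers and within or below the ranges of the others. The part of carried-over cells in the germ cell level of Rbmx was not tested. Rbmxl2 in saline somatic libraries stood at 0.239% of its level in germ cells, where the 5 germ markers stood at 0.121 (Dazl) to 5.25% (Dnd1), with Ddx4 at 0.231%.

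**Figure D2:**
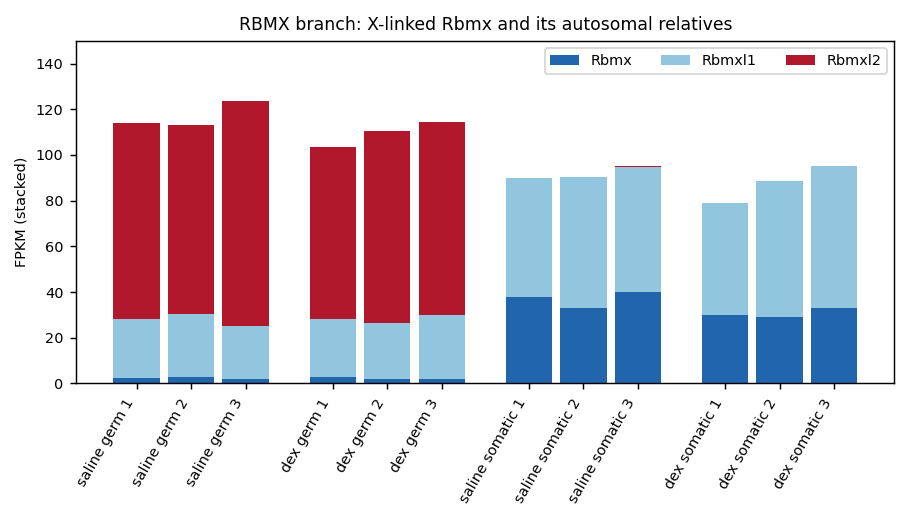
Stacked FPKM of Rbmx, Rbmxl1 and Rbmxl2 in each of the 12 libraries, grouped by population and treatment. Rbmxl2 fills most of every germ bar and is absent or nearly so from the somatic bars, which hold Rbmx and Rbmxl1; Rbmxl1 counts are uncertain because of near-identical copies.

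Because Rbmxl2 and Rbm46 were made in germ cells while Rbmx was a mainly somatic transcript, their promoters are shown for comparison. Each sequence is the 250 bases before the RefSeq start (GRCm38.p6), on the gene's own strand. Capitals mark the E-box hexamer CACGTG, found at -221 in Rbmxl2 (chr7:107209195-107209444, plus strand) and at -34 in Rbm46 (chr3:82876484-82876733, minus strand), positions being counted back from the start to the first base of the match, and absent from Rbmx (chrX:57393037-57393286, minus strand).
Rbmxl2: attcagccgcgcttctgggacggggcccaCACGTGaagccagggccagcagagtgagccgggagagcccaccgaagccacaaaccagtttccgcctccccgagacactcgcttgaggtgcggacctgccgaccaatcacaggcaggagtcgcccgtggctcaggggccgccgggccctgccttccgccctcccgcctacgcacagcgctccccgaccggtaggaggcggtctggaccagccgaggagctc
Rbm46: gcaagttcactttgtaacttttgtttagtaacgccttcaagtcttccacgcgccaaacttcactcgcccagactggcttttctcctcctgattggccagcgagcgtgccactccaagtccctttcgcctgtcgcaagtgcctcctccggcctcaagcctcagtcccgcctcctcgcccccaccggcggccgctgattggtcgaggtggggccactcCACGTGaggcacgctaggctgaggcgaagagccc
Rbmx: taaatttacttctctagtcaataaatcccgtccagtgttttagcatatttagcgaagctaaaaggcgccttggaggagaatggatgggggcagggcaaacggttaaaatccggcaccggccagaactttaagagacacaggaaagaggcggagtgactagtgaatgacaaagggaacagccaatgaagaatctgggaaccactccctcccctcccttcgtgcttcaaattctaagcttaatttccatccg

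Promoter entries existed for 38 of the 48 members, in 48 windows. The E-box, which reads the same on both strands, occurred in the windows of 5 members (Rbm15b, Rbm19, Rbm43, Rbm46 and Rbmxl2). It occurred in 6.02% of all 32851 promoters of that length. In saline, Rbm19, Rbm46 and Rbmxl2 were called higher in germ cells, Rbm15b was called lower and Rbm43 was not called. The windows of Rbm38, Rbfox3, Rbm47, Rbm48, Rbm34 and Rbm6, also called higher there, held no E-box. Some windows are transcribed sequence in the GENCODE M21 annotation. All 250 bases of the windows of Rbm15b and Rbm6 and of a window of Rbm47 lie in the gene's own exons, as do 230 bases for Rbm38. Members with the hexamer were thus called in both directions or not called. Whether the hexamer goes with the population was not tested, and only 38 of the 48 members had an entry. The glucocorticoid response element, in its full palindromic consensus and searched on both strands, occurred in 0 member windows and in 0.00913% of all promoters. The E2F element TTTCCCGC also occurred in 0 member windows (0.895% of all promoters), and the CCAAT box in 19 (33.8% of all promoters). The member windows held a median of 14.5 CpG dinucleotides, beside 6 in all promoters. These matches describe letters in a window and nothing about the factors.

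The germ cell members Rbm44 and Rbm46 were both higher in germ cells. Rbm44, a partner of TEX14 in the bridges that join germ cells, measured 22.5, 22.1 and 20.3 FPKM in saline germ libraries (3311, 2716 and 2706 counts) and had 0 counts in all 3 saline somatic libraries. Against the floor of 3 counts per library it was at least 967-fold higher in germ cells. Tex14 was also higher there (6.76 on the log2 scale, adjusted p = 1.7e-12).

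Rbm46, which acts with MEIOC and YTHDC2 in the entry into meiosis, measured 30.7, 29.7 and 23.8 FPKM in saline germ and 3.90, 4.64 and 2.56 FPKM in saline somatic libraries. The groups did not overlap, and Rbm46 was 6.92-fold higher in germ cells (log2 fold change 2.79, SE 0.20, adjusted p = 9.75e-08). Unlike Rbm44, it was present in every somatic library, at 14.4% of its level in germ cells, above that range of the germ markers. Meioc (6.14) and Ythdc2 (0.93) were both called higher in germ cells, the same direction as Rbm46.

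**Figure D3:**
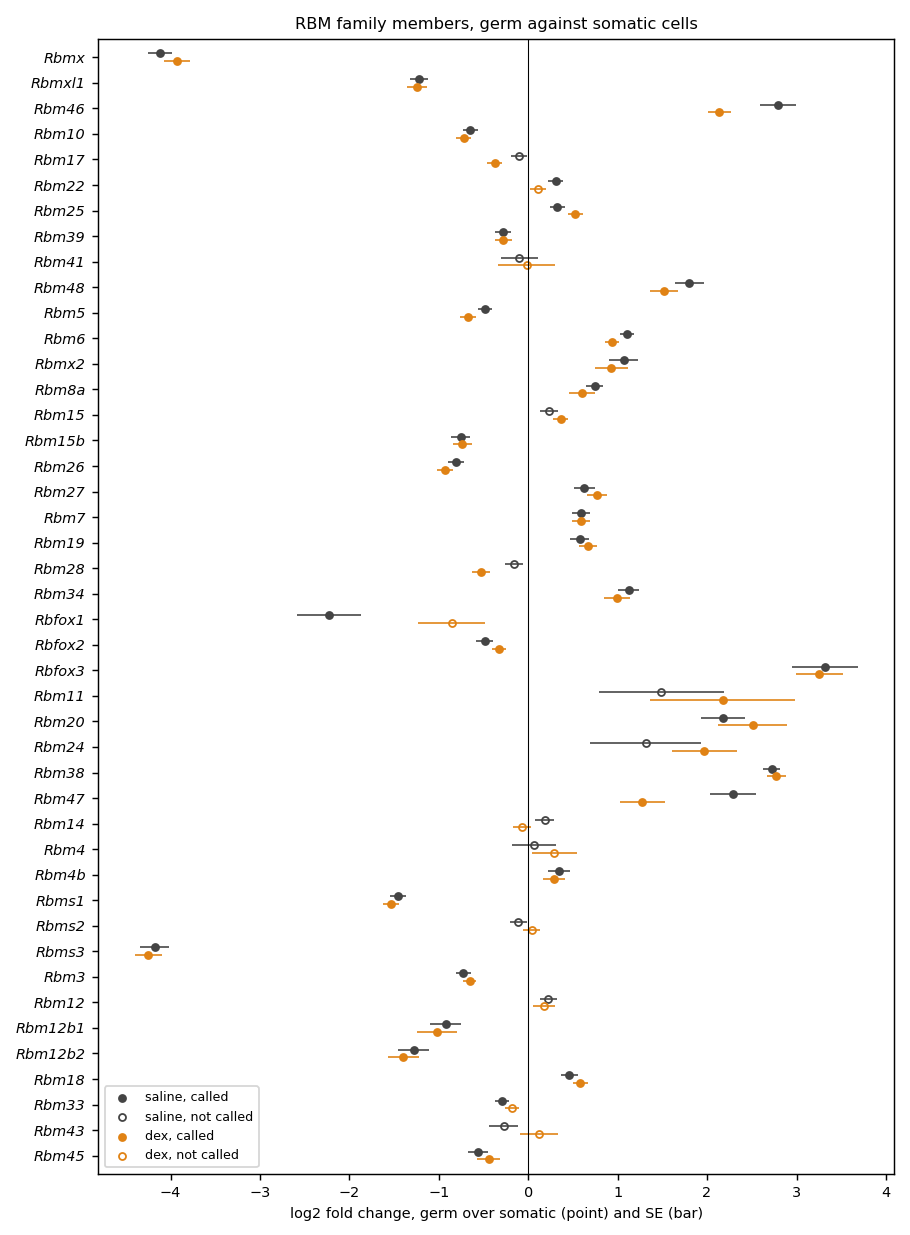
Log2 fold change of germ over somatic cells in saline (grey) and under dex (orange) for the members tested, with the SE as a bar; filled points were called and open points were not. Rbm44, Rbmxl2 and Rbm8a2 are left out because a somatic group was at or near 0. Rbms3 and Rbmx lie furthest to the left and Rbfox3 furthest to the right in both treatments, followed on the right by Rbm46 and Rbm38 in saline and by Rbm38 and Rbm20 under dex.

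The members grouped as tissue-restricted splicing regulators were spread widely, with 4 of 8 members tested called higher in germ cells and 2 called lower. The group name came from general knowledge and not from these levels. Over all genes tested in saline, 39.8% were called higher and 36.7% lower. These shares also stand beside the saline counts of the role and partner groups below, none of which was tested as a set. Rbm38, a p53 target that regulates mRNA stability, was the most abundant of them: it measured 82.0, 83.1 and 88.2 FPKM in saline germ and 10.6, 12.7 and 11.9 FPKM in saline somatic libraries, a 6.59-fold difference (log2 fold change 2.72, SE 0.10, adjusted p = 1.47e-10). Rbfox3, known for its product NeuN in neurons, measured 1.98, 2.06 and 2.27 FPKM in germ and 0.133, 0.103 and 0.351 FPKM in somatic libraries (log2 fold change 3.32, SE 0.37, adjusted p = 5.27e-06), which is a high fold on a low level. Germ libraries were above somatic libraries for both genes without overlap.

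Rbm47 and Rbm20 were higher in germ cells at low levels: Rbm47, a cofactor of the mRNA editing enzyme APOBEC1, at 2.25 ± 0.562 against 0.418 ± 0.0994 FPKM (log2 fold change 2.29, SE 0.26, adjusted p = 5.93e-06), and the heart muscle regulator Rbm20 at 1.36 ± 0.0878 against 0.275 ± 0.0354 FPKM (log2 fold change 2.18, SE 0.25, adjusted p = 5.47e-06). Rbfox1, a paralog of Rbfox3, stood the other way, at 0.306 ± 0.0990 FPKM in germ and 1.33 ± 0.390 FPKM in somatic cells (log2 fold change -2.23, SE 0.36, adjusted p = 0.000119), while Rbfox2 was abundant in both, at 23.1 ± 2.94 and 29.7 ± 1.23 FPKM (log2 fold change -0.49, SE 0.094, adjusted p = 0.000509). Rbm24, a regulator in muscle, and Rbm11 were not called in saline, with adjusted p = 0.0718 and 0.0708, and were called higher in germ cells under dex. In the saline somatic libraries Rbm24 had 17, 78 and 6 counts, of which 1 library stood far above the others.

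The RBMS branch, single-stranded nucleic acid binding proteins of which Rbms3 is known in connective tissue cells, was lower in germ cells for 2 of its 3 members. Rbms3 measured 0.349, 0.306 and 0.385 FPKM in saline germ and 6.62, 5.68 and 5.01 FPKM in saline somatic libraries. No library overlapped, and Rbms3 was 18.1-fold lower in germ cells (log2 fold change -4.18, SE 0.16, adjusted p = 2.89e-10). Rbms1 was 2.75-fold lower (8.46 ± 0.446 against 21.3 ± 0.763 FPKM, log2 fold change -1.46, SE 0.090, adjusted p = 1.98e-08). Rbms2 was not called and its groups overlapped (log2 fold change -0.11, SE 0.095, adjusted p = 0.307, 95% interval -0.32 to 0.10), and its sign changed when library totals or FPKM replaced TMM.

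Among the 10 splice site and spliceosome members tested, 5 were called higher and 3 lower in germ cells. Rbm6, a regulator of splice site choice, was 2.15-fold higher (13.0 ± 0.410 against 5.52 ± 0.277 FPKM, log2 fold change 1.11, SE 0.082, adjusted p = 1.13e-07), while its neighbour and relative Rbm5 was lower (9.03 ± 0.520 against 11.6 ± 0.582 FPKM, log2 fold change -0.49, SE 0.080, adjusted p = 0.000135). Rbm48, a part of the minor spliceosome, measured 9.78, 10.1 and 10.6 FPKM in germ and 2.24, 2.56 and 3.23 FPKM in somatic libraries (log2 fold change 1.80, SE 0.16, adjusted p = 6.15e-07), with no overlap. Rbmx2, a spliceosome protein on the X chromosome, was also higher in germ cells (log2 fold change 1.07, SE 0.16, adjusted p = 6.69e-05). It was the only one of the 5 X-linked members called higher there, beside 3 called lower (Rbmx, Rbm10 and Rbm3). Over all genes tested, 39.8% were called higher and 36.7% lower, and the counts of 5 members are not read as a trait of the chromosome.

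Rbm10, another regulator of splice site choice, was lower in germ cells (19.7 ± 1.45 against 28.4 ± 1.14 FPKM, log2 fold change -0.65, SE 0.085, adjusted p = 2.07e-05), though 36.2% of its words are shared with other genes. Rbm25, which joins the U1 particle, was higher (log2 fold change 0.33, SE 0.081, adjusted p = 0.00289), and Rbm39 was lower by a small margin (log2 fold change -0.28, SE 0.089, adjusted p = 0.0116), a call that was lost with library totals. Of 8 U1 and U2 factors outside the family, 1 was called higher (Snrpc, 0.82) and 3 lower (Luc7l3, -0.88; Snrnp70, -0.99; Sf1, -0.25). Rbm42 could not be described: it had 0 to 9 counts in a library, it was not tested in any comparison, and 75.4% of its exonic bases are overlapped by Gm21982 on the same strand.

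Members that act in RNA surveillance and modification differed by less than 2 times. Rbm8a (Y14), a core protein of the exon junction complex, was higher in germ cells (52.2 ± 6.11 against 28.6 ± 1.62 FPKM, log2 fold change 0.74, SE 0.093, adjusted p = 1.4e-05), as were its partners Eif4a3 (1.35), Casc3 (0.99) and Magoh (0.46), while Magohb was lower (-0.52). Rbm7, of the nuclear exosome targeting complex, was higher (15.3 ± 1.38 against 9.30 ± 0.206 FPKM, log2 fold change 0.59, SE 0.10, adjusted p = 0.00018). Rbm26 and Rbm27, paralogs that link polyadenylated RNA to the exosome, stood in opposite order: Rbm26 was lower (log2 fold change -0.81, SE 0.091, adjusted p = 5.53e-06) and Rbm27 higher (log2 fold change 0.63, SE 0.12, adjusted p = 0.000412) in germ cells. Of the 4 exosome adaptors outside the family, 1 was called higher (Skiv2l2) and 2 lower (Pabpn1 and Zfc3h1).

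Rbm15 and Rbm15b, paralogs that guide the m6A methyltransferase to RNA, also differed in order. Rbm15b was lower in germ cells, at 9.31, 9.69 and 9.24 FPKM against 14.2, 16.3 and 13.2 FPKM (log2 fold change -0.76, SE 0.10, adjusted p = 3.28e-05), with no overlap. Rbm15 had 10.7, 10.6 and 9.59 FPKM in germ and 8.39, 8.48 and 7.22 FPKM in somatic libraries, which did not overlap either, but it was not called (log2 fold change 0.23, SE 0.10, adjusted p = 0.0606); under dex it was called higher (adjusted p = 0.00246). Of the 6 other m6A writer genes, 5 were called higher in germ cells, among them Mettl3 (0.77) and Cbll1 (1.17), and Wtap was not called. Over all genes tested, 39.8% were called higher.

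Of the nucleolar members, which are related to yeast ribosome assembly factors, Rbm34 (11.0 ± 0.961 against 4.61 ± 0.477 FPKM, log2 fold change 1.12, SE 0.12, adjusted p = 3.78e-06) and Rbm19 (log2 fold change 0.57, SE 0.10, adjusted p = 0.000246) were higher in germ cells and Rbm28 was not called (adjusted p = 0.159). Rbm3, the cold-inducible member, was lower in germ cells, at 34.8, 35.8 and 35.8 FPKM against 52.1, 58.7 and 50.6 FPKM without overlap (log2 fold change -0.73, SE 0.086, adjusted p = 8.64e-06), while its cold-inducible relative Cirbp was slightly higher (0.23, adjusted p = 0.0343). Rbm12b1 (log2 fold change -0.92, SE 0.18, adjusted p = 0.000427) and Rbm12b2 (log2 fold change -1.28, SE 0.17, adjusted p = 2.48e-05) were lower, but these neighbours share 56.9% and 53.6% of their words with other genes, mainly each other, and their counts may be split. Rbm4, Rbm4b, Rbm12 and Rbm14 have 21.0 to 60.5% of their exonic bases overlapped by other genes, and only Rbm4b of these was called (log2 fold change 0.34, SE 0.12, adjusted p = 0.0244). Of the members not yet given, Rbm18 (0.46) and the spliceosome protein gene Rbm22 (0.31) were called higher, Rbm33 (-0.30) and Rbm45 (-0.56) were called lower, and Rbm17 (-0.10, adjusted p = 0.292), Rbm41 and Rbm43 were not called. Rbm8a2, a copy of Rbm8a, was not tested in saline, with 8, 7 and 30 counts in germ and 0, 1 and 2 counts in somatic libraries.

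Under dex, the order of the germ and somatic populations was given by another 6 libraries. Rbmx measured 2.69, 2.03 and 1.79 FPKM in dex germ and 29.9, 29.0 and 33.0 FPKM in dex somatic libraries (log2 fold change -3.93, SE 0.15, adjusted p = 1.58e-10). Rbmxl2 measured 75.1, 84.2 and 84.4 FPKM in dex germ libraries and had 0 counts in all 3 dex somatic libraries, at least 736-fold higher in germ cells against the floor. Rbm44 measured 21.8, 19.2 and 22.3 FPKM in dex germ libraries, with 8, 0 and 0 counts in the dex somatic libraries. The order of these 3 genes was that seen in saline, with no overlap of groups.

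Several tissue-restricted regulators, Rbm46 and Rbm48 were among the other members higher in germ cells under dex. Rbfox3 (log2 fold change 3.25, SE 0.26, adjusted p = 2.08e-07), Rbm38 (log2 fold change 2.77, SE 0.11, adjusted p = 2.19e-10), Rbm20 (log2 fold change 2.51, SE 0.38, adjusted p = 7.07e-05), Rbm46 (log2 fold change 2.14, SE 0.13, adjusted p = 1.87e-08), Rbm24 (log2 fold change 1.97, SE 0.36, adjusted p = 0.000327), Rbm48 (log2 fold change 1.52, SE 0.16, adjusted p = 2.47e-06), Rbm11 (log2 fold change 2.18, SE 0.81, adjusted p = 0.0276) and Rbm47 (log2 fold change 1.28, SE 0.26, adjusted p = 0.000598) were called higher in germ cells, as was Rbm8a2, which had 15, 29 and 16 counts in dex germ and 2, 0 and 0 counts in dex somatic libraries. Rbm47, at 4.89-fold in saline and 2.42-fold under dex, was not called in the test of the difference between treatments (adjusted p = 0.235). Rbms3 (log2 fold change -4.25, SE 0.15, adjusted p = 1.4e-10), Rbms1 (log2 fold change -1.54, SE 0.088, adjusted p = 8.08e-09), Rbm12b2 (log2 fold change -1.40, SE 0.17, adjusted p = 1.22e-05) and Rbmxl1 (log2 fold change -1.25, SE 0.11, adjusted p = 4.22e-07) led the members lower in germ cells.

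Rbm12b1 (-1.02), Rbm26 (-0.93), Rbm15b (-0.74), Rbm10 (-0.72), Rbm5 (-0.67) and Rbm3 (-0.65) were called lower as well. Of the members of smaller difference, Rbm7 (0.59), Rbm8a (0.60), Rbm25 (0.53) and Rbm15 (0.36) were called higher and Rbfox2 (-0.32) and Rbm39 (-0.28) lower, while Rbfox1 (-0.86, adjusted p = 0.0563) and Rbms2 (0.040, adjusted p = 0.719) were not called. Called under dex and not in saline were Rbm11, Rbm15, Rbm17, Rbm24, Rbm28 and Rbm8a2, and the reverse held for Rbfox1, Rbm22 and Rbm33; none of these passed the test of the difference between treatments. Rbm28 measured 11.9 ± 0.288 FPKM in dex germ and 15.9 ± 1.94 FPKM in dex somatic libraries (log2 fold change -0.53, SE 0.10, adjusted p = 0.000489).

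Dex was compared with saline in each population to ask whether the agonist changed the members. In germ cells, 0 of 47 members tested were called by the quasi-likelihood test of edgeR, beside 1.25% of all genes tested. DESeq2 called 1 of them, Rbm34, and 6 members had an unadjusted p at or under 0.05, which is 12.8% of those tested beside 14.7% of all genes. Dex libraries lay below all saline libraries for 8 members and above them for 2, or 17.0% and 4.26%; over all genes tested the shares were 9.55% and 10.5%. The median log2 fold change of the members was -0.061, beside -0.0027 over all genes.

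The 8 members with lower, non-overlapping dex libraries included all 3 nucleolar members, the splice site regulators Rbm6, Rbm10 and Rbm17, Rbm26 and Rbms1, and the 2 with higher ones were Rbfox3 and Rbm24. Rbm34 measured 48.7, 54.9 and 57.0 CPM in saline germ and 37.4, 42.9 and 40.3 CPM in dex germ libraries. Every dex library was lower than every saline library, by 1.33-fold on average, with the smallest p among the members (log2 fold change -0.42, SE 0.10, adjusted p = 0.0669, unadjusted p = 0.00105); it was not called, but passed the threshold in DESeq2 and without a filter on low counts.

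Rbm28 measured 87.4, 82.1 and 72.0 CPM in saline germ and 63.8, 66.0 and 66.5 CPM in dex germ libraries (log2 fold change -0.31, SE 0.091, adjusted p = 0.119). The third nucleolar member, Rbm19, measured 59.6, 61.3 and 62.2 and 58.3, 58.3 and 52.2 CPM, groups that are apart by about 1 CPM at their nearest (log2 fold change -0.12, SE 0.090, adjusted p = 0.572). All 3 genes were lower in dex without overlap, and none was called. In somatic cells Rbm34 (-0.25) and Rbm19 (-0.18) were below 0 and Rbm28 (0.10) above it, with adjusted p from 0.455 to 0.718.

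Rbm17, a splicing factor that acts at the 3' splice site, measured 111, 105 and 112 CPM in saline germ and 86.1, 99.1 and 93.4 CPM in dex germ libraries (log2 fold change -0.24, SE 0.080, adjusted p = 0.165). Rbm6 (log2 fold change -0.17, SE 0.068, adjusted p = 0.269) and Rbms1 (log2 fold change -0.22, SE 0.10, adjusted p = 0.3) were the other members with lower values at an unadjusted p at or under 0.05. In the other direction the smallest p was that of Rbm38, which measured 233, 234 and 247 CPM in saline germ and 272, 241 and 305 CPM in dex germ libraries; the groups overlapped (log2 fold change 0.19, SE 0.082, adjusted p = 0.298). Rbfox3 (log2 fold change 0.30, SE 0.15, adjusted p = 0.378), Rbm4 (log2 fold change 0.34, SE 0.21, adjusted p = 0.489), Rbm20 (log2 fold change 0.25, SE 0.17, adjusted p = 0.551) and Rbfox1 (log2 fold change 0.53, SE 0.37, adjusted p = 0.556) followed, none of them called.

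Among members that act in RNA surveillance and modification, Rbm8a measured 148, 163 and 184 CPM in saline germ and 111, 177 and 124 CPM in dex germ libraries, with dex replicate 2 apart from the other dex libraries (log2 fold change -0.27, SE 0.14, adjusted p = 0.391). It was called only without that library. Rbm7 (0.074, 95% interval -0.13 to 0.27), Rbm15 (0.010, -0.17 to 0.19) and Rbm15b (-0.14, -0.36 to 0.066) had overlapping groups, as did the abundant splicing members Rbm39 (-0.0091, -0.21 to 0.20), Rbm25 (-0.021, -0.19 to 0.14) and Rbm5 (-0.12, -0.30 to 0.049). Rbm3 was at -0.085 (-0.24 to 0.067), Rbfox2 at 0.030 (-0.15 to 0.21), Rbmxl1 at -0.004 (-0.24 to 0.23) and Rbm47 at -0.39 (-0.78 to 0.0072), all on the log2 scale. Also not called were Rbm10 (-0.19, adjusted p = 0.339), Rbm26 (-0.19, adjusted p = 0.358), Rbm24 (0.24, adjusted p = 0.669), Rbms2 (-0.0075, adjusted p = 0.984) and Rbms3 (-0.27, adjusted p = 0.685). The signs of Rbm15, Rbm25, Rbm39, Rbfox2 and Rbmxl1 changed under some scaling or with 1 library left out.

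Neither the germ cell members nor Rbmxl2 and Rbmx passed the test in germ cells: Rbm44 -0.061 (95% interval -0.24 to 0.11), Rbm46 -0.12 (-0.37 to 0.13), Rbmxl2 -0.16 (-0.34 to 0.020) and Rbmx -0.12 (-0.54 to 0.31) on the log2 scale. The Sertoli markers differed between the same groups, summing to 38.5 to 41.7 CPM in saline germ and 22.7 to 30.6 CPM in dex germ libraries, with none of the 4 called; their part in these values was not tested.

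**Figure D4:**
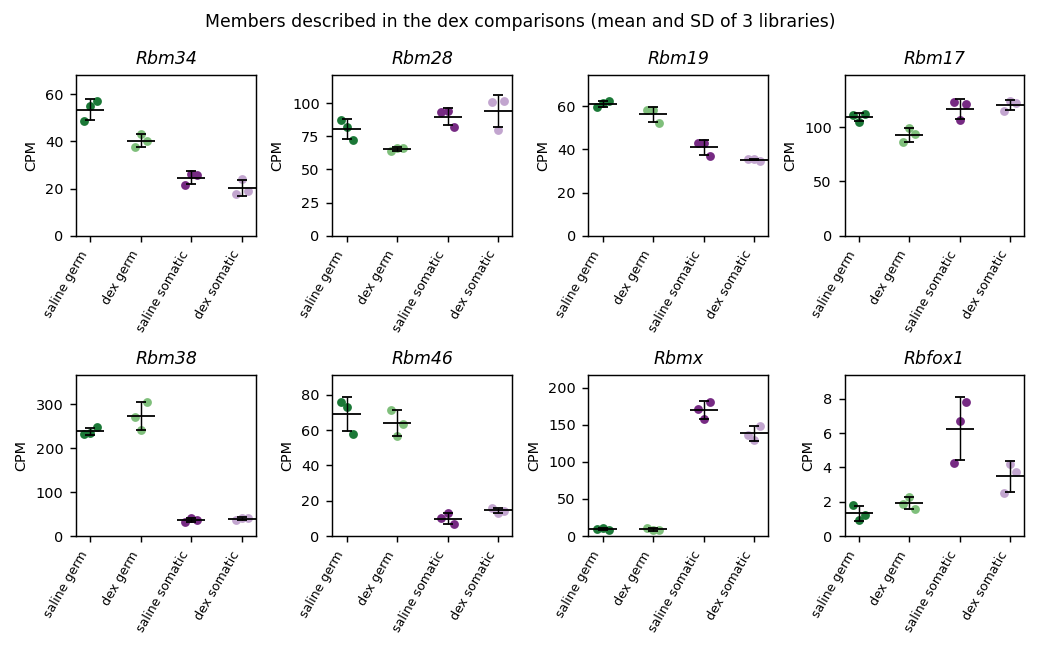
CPM of 8 members in each library of the 4 groups, with 1 point per library and the mean and SD of 3 libraries as a bar. Rbm34, Rbm28, Rbm19 and Rbm17 lie lower in dex than in saline germ libraries, Rbm46 higher and Rbmx and Rbfox1 lower in dex than in saline somatic libraries; none was called.

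In somatic cells, 0 of 43 members tested were called by edgeR's quasi-likelihood test, beside 3.91% of all genes tested. DESeq2 also called 0, and 4 members had an unadjusted p at or under 0.05 (9.30% of those tested, 16.1% of all genes). Dex libraries lay below all saline libraries for 8 members and above them for 1, or 18.6% and 2.33%, beside 12% and 9.38% of all genes tested. The median log2 fold change of the members was -0.031, beside -0.0066 over all genes.

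Rbmx had the smallest p, at 172, 158 and 181 CPM in saline somatic and 137, 129.6 and 149 CPM in dex somatic libraries. The groups did not overlap, and Rbmx was lower under dex by 1.21-fold (log2 fold change -0.27, SE 0.092, adjusted p = 0.133), a call reached only without saline somatic replicate 2. Rbm46 was the one member with higher, non-overlapping dex libraries, at 10.3, 12.8 and 6.71 CPM in saline somatic and 16.0, 13.3 and 14.0 CPM in dex somatic libraries (log2 fold change 0.58, SE 0.21, adjusted p = 0.167, 95% interval 0.13 to 1.02). It was not called. Of the 4 germ markers tested in the same libraries, Ddx4 (-1.17) and Dazl (-0.94) were below 0 and Dnd1 (0.35) and Nanos3 (0.50) above it, none of them called (adjusted p = 0.419 to 0.785), and the 5 germ markers summed to 7.16 to 8.38 CPM in saline and 7.31 to 8.42 CPM in dex somatic libraries; their part in the value of Rbm46 was not tested.

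Rbfox1 (4.26, 6.68 and 7.83 against 2.49, 4.21 and 3.73 CPM, log2 fold change -0.81, SE 0.32, adjusted p = 0.216) and Rbm25 (197, 207 and 196 against 170.0, 161 and 186 CPM, log2 fold change -0.19, SE 0.079, adjusted p = 0.256) were lower under dex without overlap and were not called. Rbm45 (log2 fold change -0.23, SE 0.11, adjusted p = 0.312) and Rbm19 (log2 fold change -0.18, SE 0.11, adjusted p = 0.455) completed the 5 smallest p in that direction, also without overlap. In the other direction Rbm47 (log2 fold change 0.67, SE 0.34, adjusted p = 0.355), Rbm48 (log2 fold change 0.36, SE 0.21, adjusted p = 0.437), Rbm38 (log2 fold change 0.17, SE 0.12, adjusted p = 0.533) and Rbm12b1 (log2 fold change 0.25, SE 0.17, adjusted p = 0.543) followed Rbm46. The other members with lower, non-overlapping dex libraries were Rbm43, Rbm3 (-0.12, 95% interval -0.29 to 0.047) and Rbm10 (-0.080, -0.26 to 0.10). Rbmxl1 was at 0.054 (-0.15 to 0.26), Rbms3 at -0.16 (-0.41 to 0.089) and Rbfox2 at -0.10 (-0.26 to 0.065) on the log2 scale, with overlapping groups. The remaining members fixed by name were not called either: Rbm5 (0.10), Rbm7 (0.11), Rbm8a (-0.087), Rbm15 (-0.084), Rbm15b (-0.12), Rbm26 (-0.031), Rbm39 (0.019), Rbm20 (-0.049), Rbm24 (-0.34), Rbfox3 (0.38), Rbms1 (-0.11) and Rbms2 (-0.12), with adjusted p from 0.544 to 0.98. Beside these values, the peritubular and stromal markers summed to 2396 to 3019 CPM in saline and 3447 to 3954 CPM in dex somatic libraries, with 3 of 5 called higher, and the macrophage markers to 30.5 to 53.7 and 13.2 to 16.9 CPM, with 2 of 4 called lower; their part in the members' values was not tested.

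**Figure D5:**
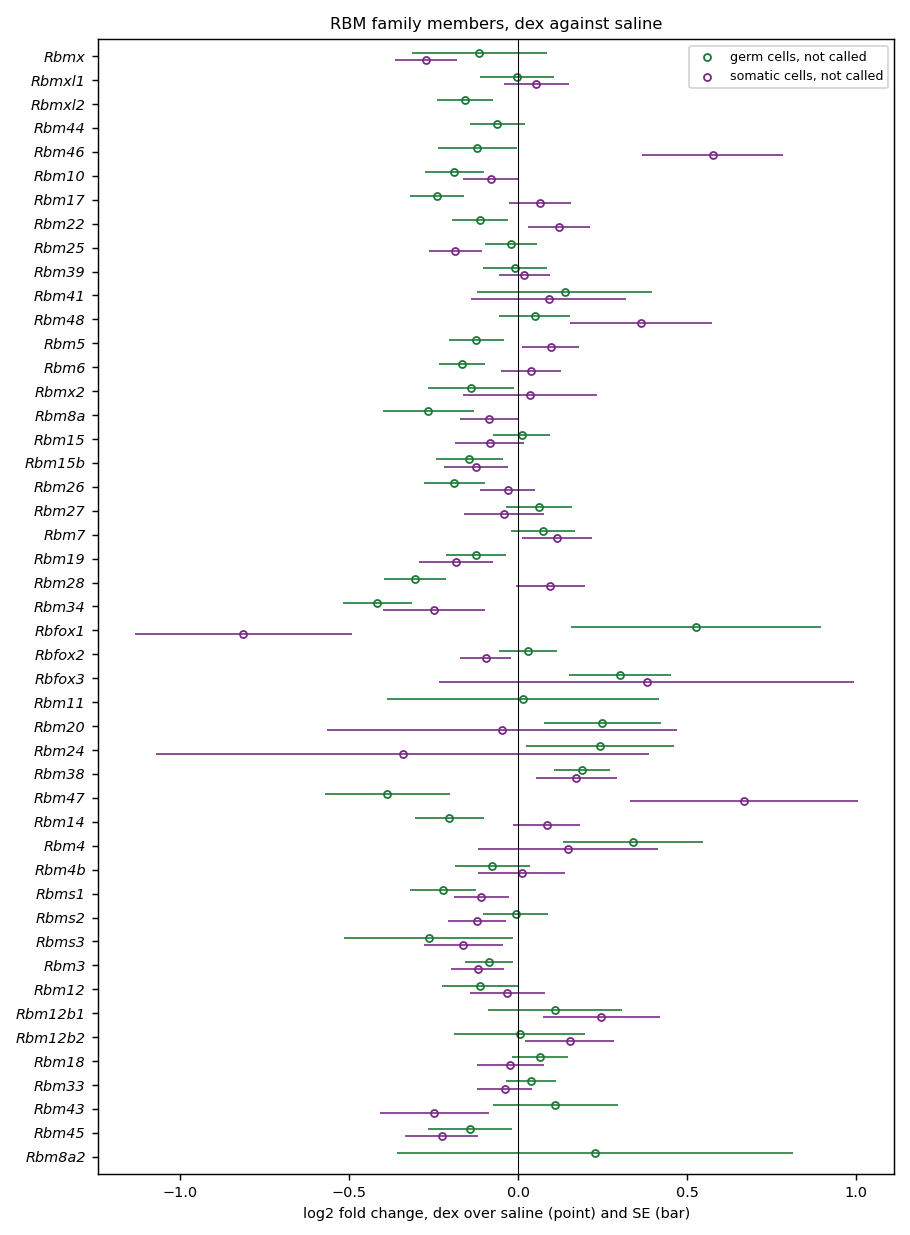
Log2 fold change of dex over saline in germ cells (green) and somatic cells (purple) for the members tested, with the SE as a bar. All points are open because no member was called; most germ points lie within 0.4 of 0, and the widest bars belong to members with low counts.

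The dex effects of the populations were compared directly, as germ minus somatic, over all 12 libraries. Of 47 members tested, 1 was called, beside 0.827% of all genes tested, and 7 (14.9%) had an unadjusted p at or under 0.05, beside 13.3% of all genes. The called member was Rbmxl2, at a difference of 5.55 (SE 1.09, adjusted p = 0.0304), which rests on a few counts: it had 7, 3 and 9 counts in saline somatic and 0 in all 3 dex somatic libraries, against 2859, 2296 and 2977 counts in saline germ and 2333, 3250 and 2585 counts in dex germ libraries. The saline somatic mean, 0.308 CPM, stood at 1.95 times the floor of 3 counts in the dex somatic libraries. Saline somatic replicate 2 itself had 3 counts, so this ratio is no bound on the difference. Of the 5 germ markers in the same contrast, Ddx4 was called higher (1.28, adjusted p = 0.0462), Dazl (1.03) and Pou5f1 (0.21) were above 0 and Dnd1 (-0.54) and Nanos3 (-0.64) below it, these 4 not called. As a percent of the germ cell level, Ddx4 stood at 0.231% in saline somatic and 0.0955% in dex somatic libraries, and Dnd1 at 5.25% and 7.61%; the part of germ cell RNA in the value of Rbmxl2 was not tested. Rbmxl2 passed the filter on low counts in the fit of 12 libraries through its germ libraries, and it did not pass the filter in the somatic dex comparison, the arm on which the difference rests. The call was lost with a filter of 10 counts in every library, which removed Rbmxl2, in both limma fits, with a replicate block (adjusted p = 0.0622) and in 9 of 12 fits that left out 1 library.

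Rbm47 (log2 fold change -1.01, SE 0.37, adjusted p = 0.235), Rbm46 (log2 fold change -0.65, SE 0.25, adjusted p = 0.272), Rbm44 (log2 fold change -4.68, SE 1.82, adjusted p = 0.282), Rbm28 (log2 fold change -0.37, SE 0.15, adjusted p = 0.292) and Rbm17 (log2 fold change -0.27, SE 0.12, adjusted p = 0.329) had the smallest p among negative differences and were not called. Rbm44 rests on 8 counts in dex somatic replicate 1, the one somatic library in which it was counted. Rbfox1 (log2 fold change 1.38, SE 0.51, adjusted p = 0.242), Rbm25 (log2 fold change 0.20, SE 0.11, adjusted p = 0.483), Rbm43 (log2 fold change 0.39, SE 0.26, adjusted p = 0.554) and Rbfox2 (log2 fold change 0.16, SE 0.13, adjusted p = 0.646) followed Rbmxl2 among positive differences. The difference for Rbmx was 0.19 (-0.22 to 0.60), that for Rbmxl1 -0.020 (-0.34 to 0.30) and that for Rbm38 0.055 (-0.25 to 0.36), with 95% intervals in parentheses. The remaining members fixed by name were not called: Rbm3 (0.073), Rbm5 (-0.19), Rbm7 (-0.0053), Rbm8a (-0.14), Rbm10 (-0.073), Rbm15 (0.13), Rbm15b (0.018), Rbm26 (-0.12), Rbm39 (0.0074), Rbm20 (0.33), Rbm24 (0.66), Rbfox3 (-0.063), Rbms1 (-0.077), Rbms2 (0.15) and Rbms3 (-0.068), with adjusted p from 0.536 to 1. None of the partner genes, which cover 6 m6A writer, 4 exon junction complex, 4 exosome and 8 splice site genes, Meioc, Ythdc2, Cirbp and Tex14, was called for dex in germ cells, in somatic cells or between them by the quasi-likelihood test of edgeR. In germ cells an unadjusted p at or under 0.05 was reached by 4 of 8 splice site genes, 2 of 4 exosome genes, 1 of 6 m6A writer genes, 1 of 4 exon junction genes and Meioc, beside 14.7% of all genes, and the smallest adjusted p was that of Skiv2l2, 0.0862. Luc7l3, Sf1, Snrpa, U2af2, Pabpn1, Mettl3 and Magohb were lower under dex, Skiv2l2 and Meioc higher. Of the 8 splice site genes, 7 were below 0 and 5 had lower, non-overlapping dex libraries, beside 50.4% and 9.55% of all genes. In somatic cells 1 of 8 splice site genes and 1 of 4 exosome genes reached it, beside 16.1% of all genes.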

How the data were processed

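RNA-seq counts and FPKM were used as the authors deposited them, in 1 table of 12 libraries. Per the submitters' processing notes and the study's methods, the authors aligned reads to mm10 with HISAT2 2.0.5 and counted them per gene with featureCounts 1.5.0-p3. The annotation release and the strand setting are not given in the sources used here. The deposited counts are whole reads per gene. The deposited FPKM are those counts per kilobase of gene and a scaled library total, which was 0.956 to 1.04 times the summed counts of the library. A further 2 tables hold the authors' DESeq2 1.20.0 comparisons (fold changes and p-values) and were not used. Gene coordinates in the table matched the GENCODE M21 annotation for 98.3% of genes and for 47 of the 48 members, and exon overlaps and shared words of 64 bases came from that annotation and its transcripts. Genes on the opposite strand cannot be told apart without a strand setting.

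Groups came from the labels. Genes were kept by filterByExpr at 10 counts, scaled by TMM and tested by edgeR 4.0.16's quasi-likelihood test (R 4.3.3), with 3 libraries against 3 for each comparison and all 12 for the difference of dex effects. Adjusted p-values are Benjamini-Hochberg over all genes tested, and intervals are 95% from the fitted SE. Alternatives were library totals, DESeq2 1.42.0 and its size factors, no filter or at least 10 counts in every library, limma 3.58.1 on log2(FPKM + 0.1) and log2(FPKM + 1), 1 fit of all 12 libraries, a replicate block, and each library left out. Counts were simulated from the library means, equal in germ and somatic libraries, with 200 genes of higher mean count changed by 1 on the log2 scale. The test recovered 82.0% in the germ cell dex comparison (18087 genes), 85.0% in the somatic one (16271 genes) and 63.0% for the difference of dex effects (19701 genes). Of the genes called, 7.34%, 6.59% and 5.97% had not been changed. The members' dex effects in germ cells lay between -0.42 and 0.53. Recovery of changes below 1, or in genes with few counts, was not simulated.

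The members, partner lists, markers and motifs were chosen with earlier results of these data known. Statistics are given for members fixed by name, for called members and the 5 smallest p in each direction of the dex comparisons, and for the 10 largest called, non-overlapping differences in each direction between populations. Promoters came from RefSeq on GRCm38.p6.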

Additional observations from a re-analysis of the deposited data

Results flagged for a closer look

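Rbmxl2 was singled out because the test of the difference between the dex effect in germ cells and in somatic cells passed the threshold (edgeR's quasi-likelihood test, adjusted p = 0.0304 over all genes tested). The value rests on 7, 3 and 9 counts in the saline somatic libraries and 0 in the 3 dex somatic libraries. Rbmxl2 passed the filter on low counts in that fit through its germ libraries and did not pass it in the somatic dex comparison, where it was not tested. The fitted difference of 5.55 on the log2 scale depends on the prior count and is no bound. The adjusted p lay between 0.0131 and 0.0766 when 1 library was left out, and passed the threshold in 3 of those 12 fits. DESeq2 gave an adjusted p of 0.0084.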

How the results depend on the processing

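The counts of members called stayed within 1.5 times of the values in the report in 61 of 80 recomputations. For germ against somatic cells they lay between 34 and 37 in saline and between 35 and 38 under dex when 1 library was left out. Members called for dex in germ cells were 1 (Rbm34) with DESeq2 and without the low count filter, and 0 to 1 with 1 library left out (Rbm8a, without dex germ replicate 2). In somatic cells there was 1 (Rbmxl2) with all 12 libraries in 1 fit, and 0 to 1 with 1 library left out (Rbmx, without saline somatic replicate 2). For the difference of dex effects there were 2 (Rbm44 and Rbmxl2) without the filter, 0 with at least 10 counts in every library, in both limma fits and with the replicate block, and 0 to 1 with 1 library left out; it was 1 without dex germ replicate 2, saline germ replicate 3 or saline somatic replicate 2. The stricter filter left Rbmxl2 untested; for the other changes the cause was not tested.

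The labels do not say whether replicate numbers pair germ with somatic libraries, and the main fits took them as unpaired. Libraries with the same number had correlations of deviations from 0.037 to 0.044 between saline populations. The range was -0.016 to -0.0030 between dex populations and -0.088 to 0.044 between treatments. Every library correlated best with its own number only in the saline comparison of populations (6 of 6). With the replicate block, members called were 0 for dex in germ cells, 0 in somatic cells, 37 in saline and 37 under dex between populations, and 0 for the difference of dex effects; Rbm24 in somatic cells turned to 0.21.

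Of 2304 recomputed values of single members, 2156 kept their direction and side of the threshold, 30 lost a call and 28 gained one. The direction of 25 single results changed under some setting (log2 scale); none of them was called in the report, and 1 was called in any setting (Rbms2 between saline populations, without saline germ replicate 3). With library totals, Rbm25 was 0.0024, Rbm39 0.013, Rbms2 0.016 and Rbmxl1 0.019 (dex in germ cells), Rbm39 was -0.040 and Rbmxl1 -0.0045 (dex in somatic cells), Rbms2 was 0.026 (saline populations), Rbm7 was 0.040 and Rbmxl1 0.024 (difference of dex effects). With DESeq2 size factors, Rbm15b was -3.5e-05 and Rbm39 -0.0081 (difference of dex effects). With DESeq2, Rbm39 was -0.0081 (difference of dex effects). With limma at a pseudocount of 0.1, Rbm25 was 0.0050, Rbm39 0.013, Rbms2 0.019 and Rbmxl1 0.023 (dex in germ cells), Rbm24 was 0.089 (dex in somatic cells), Rbms2 was 0.0081 (saline populations), Rbm15b was -0.0087 and Rbm39 -0.0089 (difference of dex effects). With limma at a pseudocount of 1, Rbm25 was 0.0047, Rbm39 0.013, Rbms2 0.018 and Rbmxl1 0.022 (dex in germ cells), Rbms2 was 0.0080 (saline populations), Rbfox3 was 0.15, Rbm15b -0.0039, Rbm39 -0.0088 and Rbms3 0.072 (difference of dex effects). With all 12 libraries in 1 fit, Rbmxl1 was 0.0029 (dex in germ cells), Rbm39 was -0.0097 (dex in somatic cells). Without the filter, Rbmxl1 was 0.00075 (dex in germ cells), Rbm7 was 0.0044 (difference of dex effects). With at least 10 counts in every library, Rbm39 was -0.0049 (difference of dex effects). With 1 library left out, the range for dex in germ cells was Rbfox2 from -0.041 to 0.13, Rbm15 from -0.044 to 0.042, Rbm25 from -0.078 to 0.044, Rbm39 from -0.097 to 0.086, Rbm44 from -0.11 to 0.0040, Rbms2 from -0.080 to 0.087, Rbmx from -0.30 to 0.0053 and Rbmxl1 from -0.080 to 0.064. For dex in somatic cells it was Rbm20 from -0.38 to 0.33, Rbm24 from -0.82 to 1.01, Rbm26 from -0.072 to 0.011, Rbm39 from -0.014 to 0.046 and Rbmxl1 from -0.013 to 0.15. For dex populations it was Rbms2 from -0.019 to 0.12. For difference of dex effects it was Rbfox3 from -0.76 to 0.25, Rbm15b from -0.086 to 0.10, Rbm20 from -0.049 to 0.65, Rbm24 from -0.75 to 1.15, Rbm3 from -0.0099 to 0.13, Rbm38 from -0.057 to 0.14, Rbm39 from -0.093 to 0.10, Rbm7 from -0.096 to 0.047, Rbms3 from -0.20 to 0.037 and Rbmxl1 from -0.13 to 0.053. Depth limited what could be said of Rbm42, Rbm8a2, Rbm11 and Rbm24, and of Rbm44 and Rbmxl2 in somatic cells, all with few counts.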
